A study of Mus musculus with 18 samples.

Results

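THC given ahead of LPS was compared with LPS alone in BV-2 cells, an immortalised mouse microglial line. Small RNA from 3 samples treated with THC and LPS (THC+LPS, numbered 27, 33 and 39 by the labels) was set against small RNA from 3 samples treated with LPS only (LPS, numbered 23, 29 and 35). LPS, a bacterial cell wall component, was present in both groups at 100 ng/ml for 4 h. THC, the psychoactive cannabinoid of Cannabis, was added at 10 μM 2 h before LPS, from a stock in ethanol. Whether cells without a cannabinoid also received ethanol is not given in the sources used here, so that THC and its solvent cannot be told apart. The comparison therefore sets cells given THC against cells without it, all of them exposed to LPS. The series holds 18 samples, with 3 each also for untreated cells (Control), THC alone, CBD alone and CBD followed by LPS (CBD+LPS), and all 6 groups entered the same model. Of the 2134 miRNA features listed, 1363 had at least 10 reads summed over the 18 samples and are described here, made up of 642 hairpin entries, named with a lower-case r, and 721 mature strands, named with a capital R. Entries of let-7, which lack that letter, were counted as mature where the name ends in p and as hairpins otherwise. Samples of a group are separate by their labels, but nothing says that they came from separate cultures, so that the p-values measure the spread between these samples, which may be technical.

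A miRNA is cut from a hairpin precursor, which can release a mature strand from either arm, named 5p and 3p. The mature strand guides Argonaute to messenger RNAs that pair with its seed, and most target transcripts are then repressed. LPS acts on microglia and macrophages through TLR4 and NF-κB, and miR-155 and miR-146a are among the miRNAs that this pathway is known to induce. THC is an agonist of the cannabinoid receptors CB1 and CB2.

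Values are CPM, that is, reads scaled to a common library size by edgeR's TMM factors. The LPS libraries held 742150, 842970 and 1057147 reads, and the THC+LPS libraries held 539785, 924815 and 978251. A level of 3 reads in a library, the smallest considered above counting error, was 3.09 to 5.33 CPM in these 6 libraries, and this floor covers counting error only. THC+LPS sample 27, the shallowest library, stood apart: 3 hairpins at high levels elsewhere (mir-6243, mir-6236 and mir-6240) took 0.361% of its reads, against 1.68% to 2.43% in the other libraries. LPS sample 23 and THC+LPS sample 27 also lay far from the other samples of their groups, their chi-square divided by the degrees of freedom being 67.6 to 74.6, whereas LPS samples 29 and 35 differed by 3.04 and THC+LPS samples 33 and 39 by 3.49. The labels name no batch, so values from samples 28 to 39 alone, which leave out both of these samples, are given beside several results.

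The sequences on which the comparison turns are shown with their positions in GRCm38, taken from RefSeq (GRCm38.p6) and GENCODE M21. The hairpin mir-1188, the feature with the smallest p, lies at chr12:109611822-109611941 on the plus strand, in an intron of the noncoding gene Rian within the imprinted Dlk1-Dio3 domain. Capitals mark its mature arms, miR-1188-5p and miR-1188-3p.
mir-1188: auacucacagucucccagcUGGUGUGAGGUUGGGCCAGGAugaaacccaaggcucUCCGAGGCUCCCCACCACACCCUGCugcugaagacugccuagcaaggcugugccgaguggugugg
Some mature miRNAs with more reads also differed between the groups at an unadjusted p of at most 0.05 by limma. Of these miR-1964-5p, with 43 reads over the LPS samples against 19 over the THC+LPS samples (difference -0.91), is not shown. The others follow, with capitals for the seed, bases 2 to 8. They come from chr14:105623642-105623770 on the minus strand in an exon of the noncoding gene Gm6145 (miR-6390), from a pair of adjacent copies at chrX:53048154-53048244 and chrX:53048299-53048367 on the minus strand, outside other genes (miR-450a-5p), and from chr1:74394310-74394394 on the plus strand in an intron of Ctdsp1 (miR-26b-3p).
miR-6390: gAAUUGAUcaggauguaacca
miR-450a-5p: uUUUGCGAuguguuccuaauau
miR-26b-3p: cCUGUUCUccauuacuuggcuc
The LPS-induced miRNAs are shown because their levels after THC are the question of the design, and miR-146a-5p and miR-146b-5p share a seed.
miR-155-5p: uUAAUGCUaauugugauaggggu
miR-155-3p: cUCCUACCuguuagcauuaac
miR-146a-5p: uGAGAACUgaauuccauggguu
miR-146b-5p: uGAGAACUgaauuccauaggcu
miR-21a-5p: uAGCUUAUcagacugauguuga
The abundant miRNA with the smallest p, miR-152-3p, lies in an intron of Copz2 at chr11:96850393-96850465 on the plus strand and has the seed of miR-148b-3p.
miR-152-3p: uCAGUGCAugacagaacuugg
miR-148b-3p: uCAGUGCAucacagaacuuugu

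Few features passed an unadjusted cutoff between THC+LPS and LPS, none of the 1363 passed after adjustment, and those few were mostly rare. The study's criterion for a pair of groups was 1.5-fold or more at a p no larger than 0.005. Whether that p was adjusted is not stated, and it was taken here as unadjusted, on log2(CPM + 1). By this criterion 3 of 1363 features were called (0.220%). The hairpin mir-1188 fell, and miR-328-5p and miR-3113-5p rose. No feature reached an adjusted p of 0.1 by limma, whose smallest was 0.414 and whose next was 0.9998, nor by edgeR's quasi-likelihood test, edgeR's likelihood ratio test or DESeq2 on the recovered reads. At an unadjusted p of at most 0.05, 32 features passed by limma (2.35%), 13 of them higher and 19 lower after THC, beside 31, 49 and 19 features by the other 3 tests. Both limma shares, 0.220% and 2.35%, are smaller than p cutoffs of 0.005 and 0.05 would give with no difference present. They depend on the fit and do not show that no feature differed. In samples 28 to 39 alone, 55 features had a p of at most 0.05 by limma, and the likelihood ratio test called 8. In the 98 features whose samples did not overlap between the groups (7.19%), 35 were higher and 63 lower after THC. A full separation of 3 against 3 samples has a p of 0.1 by a 2-sided exact permutation test, so this share is also below that expected with no difference present. Of the 32 features above, 27 did not overlap. In features chosen by p, a lack of overlap is thus no further support. Over all features the median difference was -0.04 on the log2(CPM + 1) scale.

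mir-1188 was read 3, 4 and 5 times in the LPS samples and 0, 0 and 1 times in the THC+LPS samples. Every THC+LPS sample lay below every LPS sample. In CPM the LPS samples had 3.92, 5.30 and 5.15, and the THC+LPS samples had 0, 0 and 1.15. The fitted difference was -2.16 (SE 0.48), with a p of 0.000304 and an adjusted p of 0.414 by limma. Summed over each group the reads were 12 against 1, a ratio of 0.0910 after scaling with an exact 95% interval of 0.00213 to 0.615 for counting error only. For features named by their p, chosen in these same samples, an interval that leaves out an equal level is no support. The other groups had 3.52 CPM (Control), 5.03 CPM (THC) and 3.26 CPM (CBD+LPS) on average. Neither mature arm could carry the comparison: miR-1188-5p was at 0 reads in all 6 samples, and miR-1188-3p had 1 read in LPS sample 23. With any single sample of the groups left out the hairpin stayed at the criterion, while in samples 28 to 39 alone its p was 0.00834.

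miR-328-5p, the minor arm of its hairpin, was read 3, 0 and 3 times in LPS samples and 6, 8 and 9 times in THC+LPS samples. These are 3.92, 0 and 3.09 CPM against 10.7, 9.46 and 10.3 CPM, with no overlap. Its difference was 2.03 (SE 0.58), with a p of 0.00275 and an adjusted p of 0.9998 by limma. The reads summed to 6 against 23, a ratio of 4.19 after scaling. The exact 95% interval of 1.66 to 12.6 is for counting error only and, as the feature was chosen by its p, is no support. The major arm, miR-328-3p, had 411, 964 and 982 CPM in LPS and 497, 924 and 987 CPM in THC+LPS, a difference of 0.07 (SE 0.53), and its hairpin, at chr8:105308364-105308460 on the minus strand, differed by -0.02 (SE 0.28). Of the other groups, Control had 4.29 ± 0.818 CPM of miR-328-5p and CBD+LPS had 8.07 ± 5.49 CPM (SD over 3 samples each). The call was lost without LPS sample 29, the sample at 0, where p was 0.0252, and also without each of the THC+LPS samples.

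miR-3113-5p comes from a hairpin at chrX:151859562-151859637 on the plus strand, in an exon of Huwe1, which encodes a ubiquitin ligase. It was not read in any LPS sample and was read 1, 3 and 2 times in the THC+LPS samples. All of these lie at or under the floor of 3 reads per library, so no fold is given. Its p was 0.00329 and its adjusted p 0.9998 by limma, and with a single sample left out p rose to as much as 0.0161. The other arm, miR-3113-3p, had 39.2, 15.9 and 18.5 CPM in LPS and 28.4, 30.7 and 36.7 CPM in THC+LPS, and these ranges overlapped.

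**Figure D1:**
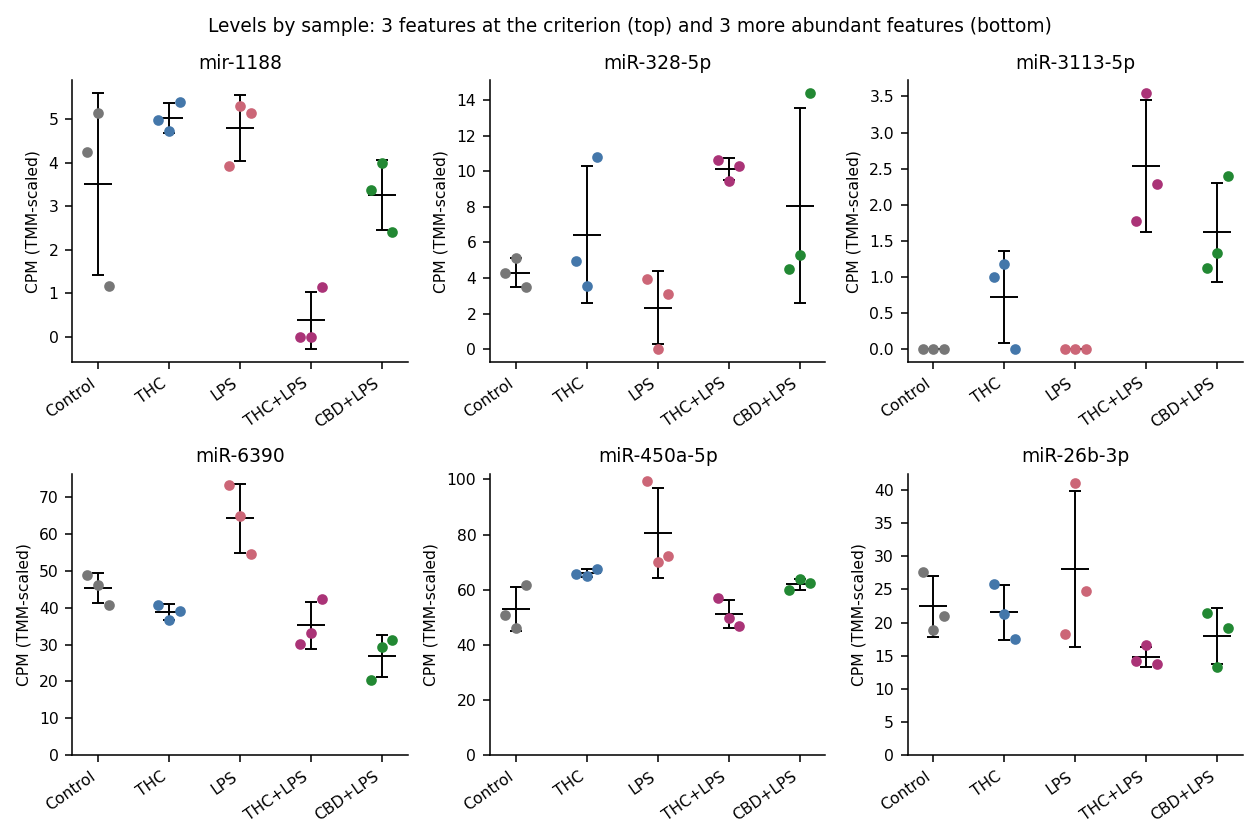
CPM of each sample (points) with the mean and SD of the group (bars) in 5 groups of 3 samples, on linear axes from 0. The top row holds the 3 features at the criterion, all under 15 CPM in every sample, and the bottom row holds miR-6390, miR-450a-5p and miR-26b-3p, for which the 3 THC+LPS samples lie below the 3 LPS samples.

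The 32 features with an unadjusted p of at most 0.05 had few reads. Of these, 28 had a mean under 10 CPM and 24 had fewer than 20 reads over the 6 samples. In 4 of them no LPS sample held a read, and in 5 no THC+LPS sample did. Of the 246 features with a mean of at least 100 CPM, none had such a p.

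miR-6390 was the next in rank after the called features. It had 73.2, 64.9 and 54.6 CPM in LPS samples, from 49 to 56 reads, and 30.2, 33.1 and 42.4 CPM in THC+LPS samples, from 17 to 37 reads. All THC+LPS samples were below all LPS samples, and the difference was -0.85 (SE 0.27), or 0.554 on the fold scale with a 95% interval of 0.375 to 0.818. Its p of 0.00531 just missed the criterion. Control cells had 45.3 ± 4.1 CPM and cells with THC alone had 38.8 ± 2.1 CPM (SD over 3 samples each), so that the LPS samples were the highest of these groups. CBD+LPS, set against the same LPS samples, had 26.9 ± 5.8 CPM (SD over 3 samples), a difference of -1.24 (SE 0.27) with an adjusted p of 0.318 by limma. The hairpin mir-6390 was also lower after THC, with 3, 2 and 4 reads against 0, 0 and 1, and shares its sequence with the mature strand. Without LPS sample 23 and THC+LPS sample 27 the difference of miR-6390 was -0.65, with an unadjusted p of 0.0259.

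miR-450a-5p, from a cluster on the X chromosome that also holds miR-322, miR-503 and miR-542, had 99.4, 70.2 and 72.1 CPM in LPS samples and 56.9, 49.6 and 47.0 CPM in THC+LPS samples. The groups did not overlap, and the difference was -0.63 (SE 0.24). Its neighbours gave -0.16 (miR-322-5p, SE 0.22), -0.29 (miR-503-5p, SE 0.43) and -0.05 (miR-542-3p, SE 0.28), with overlapping samples. Without LPS sample 23, the highest sample, the p of miR-450a-5p was 0.0919. The hairpin mir-322 had 2, 0 and 0 reads against 1, 4 and 6 (1.70, SE 0.71).

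miR-26b-3p, named here after its values were seen, had 18.3, 41.0 and 24.7 CPM in LPS samples and 14.2, 16.5 and 13.8 CPM in THC+LPS samples, a difference of -0.80 (SE 0.34). The groups did not overlap, and without LPS sample 29, the highest sample, p was 0.188. Its partner miR-26b-5p, a member of a family of abundant miRNAs, was at up to 3417 CPM in all 6 samples and differed by -0.08 (SE 0.17).

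The remaining features next in rank were read at most 14 times in any of the 6 samples. Higher after THC were mir-680-1 (0, 0 and 0 reads against 1, 4 and 3), mir-598 (1, 1 and 2 against 4, 7 and 7), miR-5619-3p (0, 0 and 0 against 2, 2 and 2), mir-337 (0, 0 and 3 against 2, 2 and 4) and miR-1934-3p (1, 1 and 2 against 2, 5 and 6). Of these only mir-337 had overlapping groups. The mature strand of mir-598, miR-598-3p, had 6, 3 and 4 reads against 3, 1 and 3 and thus the other sign.
Lower after THC were mir-1197 (8, 11 and 10 reads against 0, 4 and 4) and mir-133b (8, 3 and 14 against 0, 1 and 2), the latter from a muscle miRNA locus. The same held for mir-139 (3, 4 and 5 against 1, 0 and 2), miR-500-5p (4, 2 and 2 against 0, 0 and 2), miR-3079-5p (1, 4 and 2 against 0, 1 and 0) and miR-31-5p (1, 2 and 3 against 0, 0 and 1). No THC+LPS sample held a read of mir-7a-2, mir-3107, mir-6404, miR-5134-5p or mir-551b, which had 5 to 8 reads over the LPS samples. mir-1197, mir-337 and mir-1188 all lie in the Dlk1-Dio3 domain on chromosome 12. mir-1197 was listed at 0 in THC+LPS sample 27, and without that sample its p was 0.0746. With a single sample left out, the p of mir-680-1, mir-598, miR-5619-3p, mir-7a-2, mir-3107 and mir-6404 stayed at or below 0.05 in each of the 6 cases. That of each other feature named with them except miR-598-3p passed 0.05 in at least 1 case, up to 0.151 for mir-139.

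**Figure D2:**
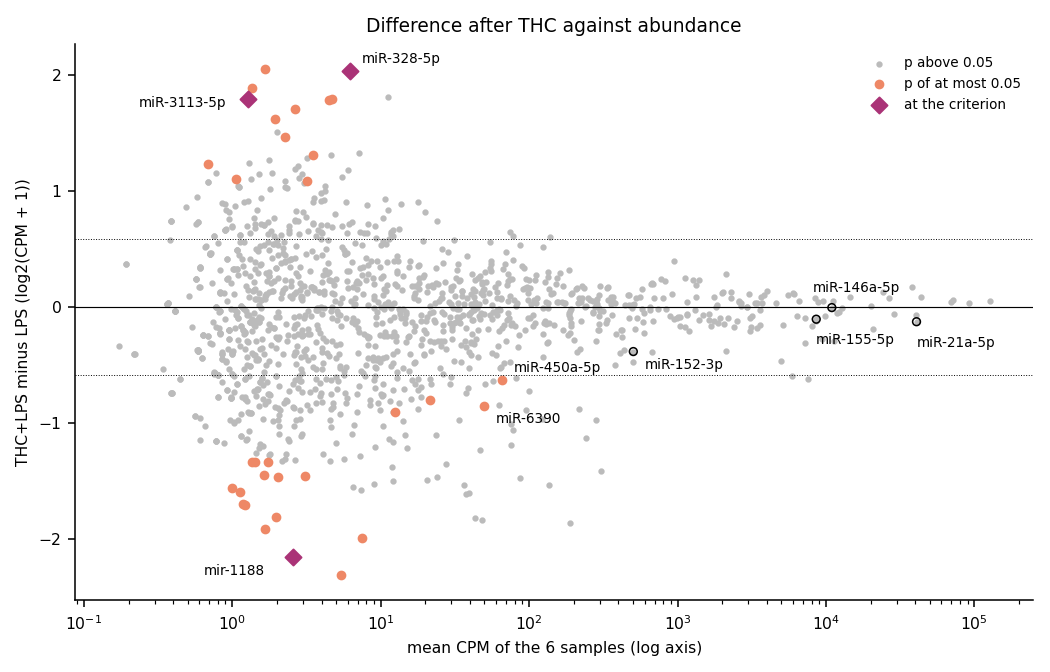
Difference between THC+LPS and LPS on log2(CPM + 1) against the mean CPM of the 6 samples on a log axis, with a point for each of the 1363 features. Diamonds mark the 3 features at the criterion, orange points other features with a p of at most 0.05, open circles named features above 0.05, and dotted lines 1.5-fold. The called features sit at the left, under 10 CPM, while the LPS-induced miR-155-5p, miR-146a-5p and miR-21a-5p sit near 0 at the right.

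Among the 246 abundant features the smallest p was that of miR-152-3p, a relative of miR-148, with 612, 547 and 552 CPM in LPS samples and 393, 461 and 457 CPM in THC+LPS samples. Its groups did not overlap, but the difference of -0.39 (SE 0.21) had a p of 0.0801. miR-148b-3p, with the same seed, differed by -0.12 (SE 0.18) and its samples overlapped. The hairpin mir-760 (-0.43, SE 0.25), miR-142-5p (-0.28, SE 0.16), miR-142-3p (-0.38, SE 0.23), mir-16-1 (-0.37, SE 0.25) and miR-15a-5p (-0.21, SE 0.15) came next with negative differences. The hairpins mir-3096b (0.29, SE 0.17), mir-5117 (0.25, SE 0.15) and mir-677 (0.29, SE 0.22) and miR-3096b-5p (0.60, SE 0.43) had positive differences. Their p-values lay between 0.0980 and 0.197. miR-142-5p and miR-142-3p, miRNAs of the blood lineages, had their highest level in LPS sample 23 (12346 and 3318 CPM), and miR-142-3p overlapped between the groups. With samples 22 to 27 set against the rest as a covariate, the unadjusted p was 0.00298 for miR-142-3p, 0.0181 for miR-142-5p and 0.0365 for miR-152-3p, each under 1.5-fold.

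Differences of 1.5-fold or more occurred in 10 of the abundant features, 9 lower and 1 higher. In all 10, sample 27 held the lowest or the highest value of the 6, and in samples 28 to 39 alone none of the 10 reached 1.5-fold, with differences of 0.04 to 0.40. The hairpin mir-6361, named here after its values were seen, had 221, 209 and 190 CPM in LPS samples and 1.78, 261 and 254 CPM in THC+LPS samples, a difference of -1.86 (SE 2.06). The hairpins mir-6236 and mir-6243 behaved alike, with 986 and 1201 CPM in sample 27 against 5956 to 11302 CPM in the other 5 samples.

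The precision of the comparison depended on abundance. For the 770 features under 10 CPM the median SE was 0.68, and the 95% interval of the difference stayed within 2-fold for 1 of them. For the 95 features of at least 1000 CPM the median SE was 0.22, and the interval stayed within 2-fold for 87 (91.6%) and within 1.5-fold for 51 (53.7%). Between 100 and 1000 CPM, 109 of 151 intervals stayed within 2-fold (72.2%). Over all 1363 features, the interval stayed within 2-fold for 308 (22.6%). In bulk RNA, fewer cells with a miRNA and less of it per cell cannot be told apart.

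The main miRNAs that LPS raised over Control were also higher than Control after THC and LPS, by 3.23 (SE 0.22) for miR-155-5p, 4.48 (SE 0.31) for miR-155-3p and 0.95 (SE 0.19) for miR-21a-5p, each at the criterion. miR-155-5p, which represses regulators of inflammatory signalling, had 8157, 9334 and 9273 CPM in LPS samples and 8934, 7901 and 8013 CPM in THC+LPS samples, against 922 ± 325 CPM in Control (SD over 3 samples). The ranges overlapped and the difference was -0.11 (SE 0.22), with a 95% interval of -0.57 to 0.36. miR-155-3p, its passenger arm, had 539, 432 and 431 CPM in LPS samples and 318, 366 and 376 CPM in THC+LPS samples. Here the groups did not overlap, but the difference of -0.40 (SE 0.31) had a p of 0.219, and it was -0.22 in samples 28 to 39 alone. The hairpin mir-155 differed by -0.02 (SE 0.25).

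miR-146a-5p, a feedback inhibitor of TLR signalling that targets Irak1 and Traf6, had 10482, 12064 and 10411 CPM in LPS samples and 11713, 10413 and 10647 CPM in THC+LPS samples. Its difference of -0.01 (SE 0.28) had a 95% interval of -0.59 to 0.58. The rare arm miR-146a-3p had 44.5, 29.1 and 34 CPM in LPS samples and 26.7, 26 and 17.2 CPM in THC+LPS samples, which did not overlap, with a difference of -0.61 (SE 0.46). CBD+LPS had 21.9 ± 4.49 CPM of miR-146a-3p and Control had 6.67 ± 1.93 CPM (SD over 3 samples each). miR-146b-5p, which shares the seed of miR-146a-5p, differed by -0.08 (SE 0.26).

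miR-21a-5p, a widely expressed miRNA that represses Pdcd4, had 40674, 42682 and 44087 CPM in LPS samples and 33957, 41491 and 41614 CPM in THC+LPS samples, and the ranges overlapped. The difference was -0.13 (SE 0.19), with a 95% interval of -0.53 to 0.27. miR-21a-3p differed by -0.17 (SE 0.22) and the hairpin mir-21a by 0.16 (SE 0.27). miR-10b-5p, a Hox cluster miRNA, had 10.5, 26.5 and 23.7 CPM in LPS samples and 12.4, 9.46 and 19.5 CPM in THC+LPS samples, a difference of -0.48 (SE 0.67). In CBD+LPS its mean was 3.62 ± 4.14 CPM and in Control 2.58 ± 2.27 CPM (SD over 3 samples each). The X-linked pair miR-221 and miR-222, which target the cell cycle inhibitor p27, had 6 features, of which 2 were higher and 4 lower, with differences between -0.16 and 0.08.

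**Figure D3:**
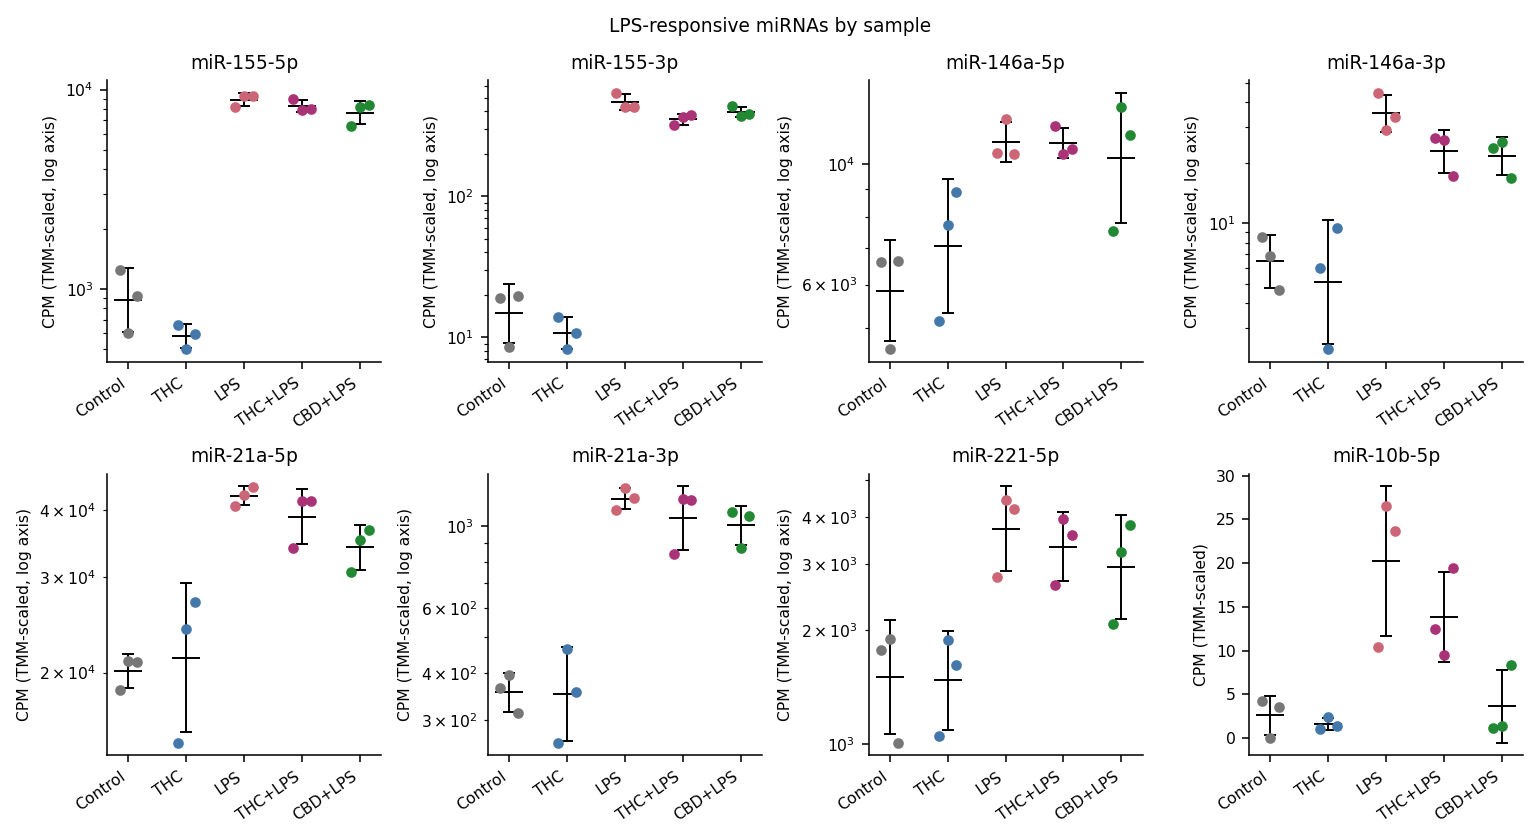
CPM of each sample (points) with the group mean and SD (bars, computed on the log scale where the axis is a log axis) for 8 miRNAs that LPS raised, in 5 groups of 3 samples. miR-10b-5p is on a linear axis because a Control sample is at 0. The THC+LPS samples lie nearer the LPS samples and apart from the Control and THC samples for both arms of miR-155 and miR-21a, although for miR-155-3p all 3 lie below the LPS samples.

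A set of features was taken from CBD+LPS against Control, which uses no sample of the comparison. The set can hold responses to CBD as well as to LPS. Of its 14 raised features, all at the criterion there, 6 were higher and 8 lower in THC+LPS than in LPS, with a median of -0.06, beside -0.04 for all features. None reached the criterion or a p of at most 0.05, and 9 of the 14 intervals stayed within 2-fold. Relative to Control, the median level of these features was 1.33 to 1.65 in the LPS samples and 1.56 to 1.79 in the THC+LPS samples on the log2 scale, and these ranges overlapped. The outermost differences were those of miR-705 (1.11, SE 0.57) and miR-146a-3p. Of the 5 features lowered in CBD+LPS, 2 were higher and 3 lower, with a median of -0.14. The 19 features raised in LPS against Control share the LPS samples with the comparison, so that a high value of those samples enters both differences. Of these, 3 were higher and 16 lower after THC, with a median of -0.13 and no feature at the criterion. Only miR-3079-5p, already given, had a p of at most 0.05. The 2 lowered features, miR-25-5p and miR-5123, differed by 0.08 (SE 0.38) and 0.89 (SE 0.64).

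The use of the arms could be described but not tested at a threshold of 0.05. For the 31 hairpins with both arms at 100 CPM or more in each of the 6 samples, and for miR-146a, the log2 ratio of the 3p to the 5p arm was compared by a 2-sided exact permutation test of 3 against 3 samples, whose smallest possible p is 0.1. The 32 differences ran from -0.62 to 0.37 with a median of -0.04, 14 above and 18 below 0. Only miR-28a, with -1.64 ± 0.32 in LPS and -1.27 ± 0.09 in THC+LPS (SD), reached the smallest exact p of 0.1, and its adjusted exact p was 0.883. miR-146a had the outermost value, with a ratio of -8.28 ± 0.41 in LPS and -8.90 ± 0.33 in THC+LPS (SD, exact p = 0.2). For miR-155 the difference was -0.29 (exact p = 0.5) and for miR-21a -0.05 (exact p = 0.7).

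miRNAs that share a seed can repress the same transcripts, so the CPM of mature miRNAs were also summed by seed. A RefSeq sequence was found for 600 of the 721 mature miRNAs tested, in 516 seed families, of which 431 had a single member. No family reached the criterion or an adjusted p of 0.1 by limma, and 8 had a p of at most 0.05, all of single members. None of the 85 families with more than 1 member had such a p. The family of miR-26b-3p and miR-26a-2-3p, with the seed CUGUUCU, came nearest, with 28 ± 11.7 CPM in LPS and 16 ± 2.06 CPM in THC+LPS (SD) and a p of 0.0502.

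None of the lists linked to inflammation, the blood lineage or THC held a feature at the criterion. The lists were described by counts and by their median beside those of all 1363 features, of which 614 were higher, 749 lower and 2.35% at a p of at most 0.05, with a median of -0.04 (0.00 in samples 28 to 39 alone). Of 26 features linked to TLR signalling, none had a p of at most 0.05, 9 were higher and 17 lower, and the median was -0.07, with miR-9-3p the lowest in p (2, 0 and 2 reads against 0, 0 and 0). The 34 features of let-7 and miR-98, repressors of growth genes, had a median of -0.06, and of -0.23 in samples 28 to 39 alone, and miR-98-3p, with 64.1, 43.7 and 38.1 CPM against 35.5, 29.6 and 22.9 CPM, had the smallest p of 0.0587. The 36 features of the miR-17~92 cluster and its paralogs, which promote proliferation, had a median of -0.04 (-0.10 in samples 28 to 39 alone), with miR-19b-2-5p the lowest in p (0.156). In their 18 abundant members all differences were between -0.24 and 0.23, and 17 intervals stayed within 2-fold. The 24 features reported after THC in other immune cells, mostly from the same cluster, had a median of -0.07, and miR-690 among them had 23.5, 15.9 and 23.7 CPM against 3.55, 28.4 and 17.2 CPM.
In miR-15/16 (20 features, median -0.08) mir-322 and in the miR-10, miR-99 and miR-125 families (20 features, median -0.10) miR-125a-3p (0, 0 and 1 reads against 4, 2 and 1) had a p of at most 0.05. None of the features of miR-29 (11, median -0.07), miR-30 (19, median -0.02), miR-232724 (17, median 0.04), miR-34 (12, median 0.14) or miR-181 (16, median 0.08) did. In samples 28 to 39 alone the sign of the median turned for miR-232724 (-0.07) and miR-34 (-0.07). The members with the smallest p there were miR-29b-2-5p (0.166), mir-30b (0.0656), mir-24-2 (0.190), mir-34b (0.0763) and miR-181d-3p (0.0756). The 31 features that the study listed as regulated across the treatments were chosen on these samples, mainly by contrasts with Control. None of them had a p of at most 0.05 between THC+LPS and LPS, 12 were higher and 19 lower, and their median was -0.08.

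Some lists had another median in samples 28 to 39 alone, without LPS sample 23 and THC+LPS sample 27. The 62 features of the Dlk1-Dio3 cluster, an imprinted region, summed to 603, 576 and 614 CPM in LPS and to 329, 673 and 741 CPM in THC+LPS. Their median was -0.26, with 22 higher and 40 lower, and 0.08 in samples 28 to 39 alone. Of them, 1 was called, mir-1188, and 3 had a p of at most 0.05, beside 0.220% and 2.35% of all features. The 6 hairpin and mature features of mir-6243, mir-6236 and mir-6240 had a median of -0.53, and 0.43 in samples 28 to 39 alone. The 23 features of the Sfmbt2-type repeat cluster had a median of -0.33, and -0.24 in samples 28 to 39 alone, with miR-669n the lowest in p (0.0788). The 11 reference features, which include miR-103-3p and miR-191-5p, had a median of 0.04 (0.01 in samples 28 to 39 alone), and the 6 snoRNA-like features of mir-3096 had a median of 0.26 (0.06 in samples 28 to 39 alone). The part of the low share of mir-6243, mir-6236 and mir-6240 in these results was not tested.

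**Figure D4:**
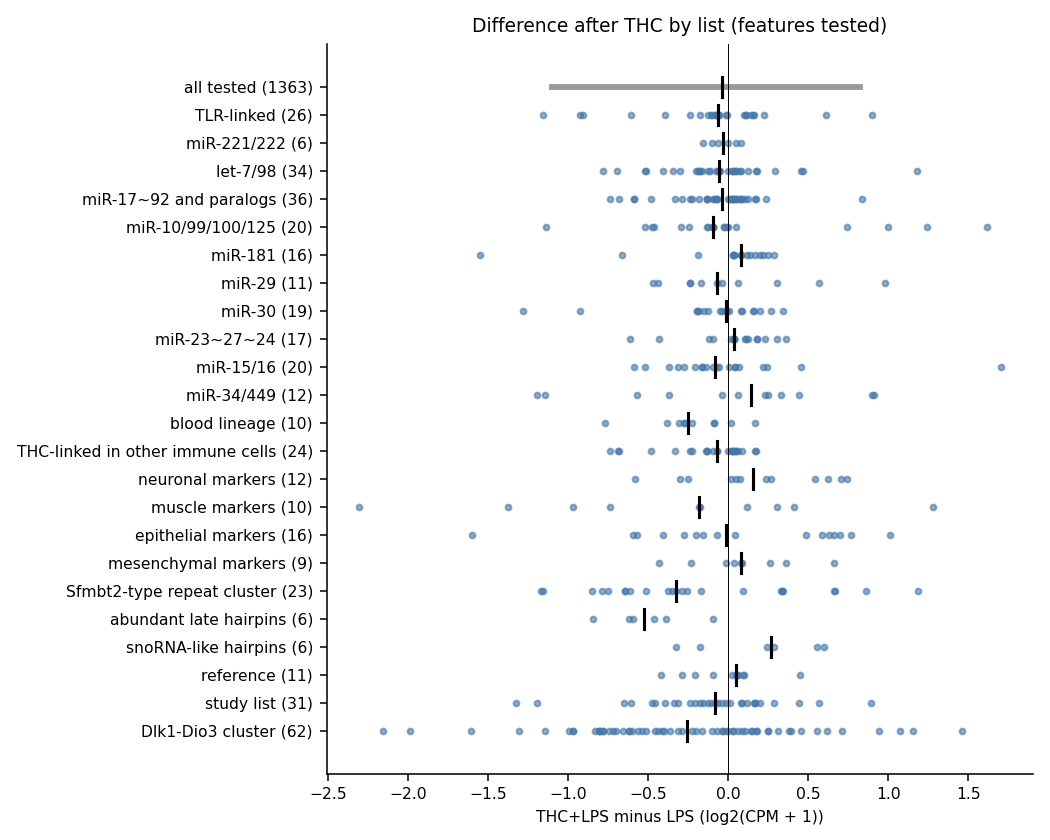
Differences between THC+LPS and LPS on log2(CPM + 1), with a point for each feature tested, by list (number tested in brackets). Black ticks are medians, and the grey bar spans the 5th to 95th percentile of all 1363 features. The medians of the lists lie between -0.53 and 0.26, and that of all features is at -0.04.

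The labelled cell type was checked against marker miRNAs. miR-142-5p, a miRNA of blood-derived cells, was present at 8217 to 12346 CPM and miR-223-3p, a myeloid miRNA, at 56.9 to 178 CPM. The 10 blood lineage features tested had a median of -0.25, with 2 higher and 8 lower, and summed to 12171 to 17261 CPM in LPS and 10952 to 12155 CPM in THC+LPS. Among markers of other cell types, the liver list (miR-122) summed to 0 to 1.31 CPM. The muscle list summed to 65.4 to 112 CPM in LPS and 56.9 to 74.5 CPM in THC+LPS, and mir-133b was its 1 member of 10 with a p of at most 0.05, beside 2.35% of all features. The median of the muscle list was -0.18, and -0.67 in samples 28 to 39 alone. The neuronal list summed to 534 to 667 CPM in LPS and 528 to 707 CPM in THC+LPS, mostly as miR-128-3p. The epithelial list summed to 8645 to 9330 CPM in LPS and 7171 to 8619 CPM in THC+LPS, nearly all as miR-141-3p, which differed by -0.16 (SE 0.17). The mesenchymal list summed to 2013 to 2220 CPM in LPS and 2116 to 2358 CPM in THC+LPS, mostly as miR-145a-3p, which differed by 0.09 (SE 0.19). In the neuronal, epithelial and mesenchymal lists, with 12, 16 and 9 features tested, none had such a p, and the members with the smallest p were miR-138-1-3p (0.286), mir-429 (0.156) and miR-214-3p (0.272).

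THC without LPS gave values from other samples. In THC against Control 6 of 1363 features were at the criterion (0.440%), 4 higher and 2 lower, and none below an adjusted p of 0.1 by limma, edgeR or DESeq2, with 46 at an unadjusted p of at most 0.05 by limma. The 3 with the smallest p were mir-141 (0, 0 and 0 reads in Control against 2, 3 and 2 after THC), miR-1897-3p (0, 0 and 0 against 7, 5 and 1) and miR-21b (0, 0 and 0 against 4, 2 and 1). Between THC+LPS and LPS these 3 differed by -0.41 (SE 0.45), -0.01 (SE 0.58) and -0.74 (SE 0.45). mir-1188 differed by 0.55 (SE 0.48) in THC against Control, miR-6390 by -0.21 (SE 0.27) and miR-155-5p by -0.60 (SE 0.22).

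The difference of the THC effect with and without LPS was tested as an interaction. No feature reached an adjusted p of 0.1 by limma, edgeR or DESeq2, where the smallest by limma was 0.652. At the criterion for a pair of groups 6 features passed (0.440%), led by mir-1188 (-2.71, SE 0.68), miR-21b (-2.51, SE 0.64) and miR-1962 (-2.48, SE 0.65), and 51 features had an unadjusted p of at most 0.05. miR-21b was read 7 times over the THC samples and 0 times over the THC+LPS samples, and miR-1962 5 and 0 times. Across the 246 abundant features the THC differences with and without LPS had Pearson's r of -0.76 and Spearman's rho of -0.46, a description across features, which are not independent replicates and share each library's composition and scaling. In samples 28 to 39 alone r was -0.31 and rho -0.31, and with the summed level of mir-6243, mir-6236 and mir-6240 as a covariate r was -0.25 and rho -0.24. Over all 1363 features r was -0.20 and rho -0.19. THC sample 25 held 4.55% of its reads on mir-6243, mir-6236 and mir-6240, the highest of all samples, and THC+LPS sample 27 held 0.361%. Control sample 22, which enters THC against Control, held 0.204%, less than sample 27. CBD samples 30 and 36, in neither difference, held 0.160% and 0.151%.

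**Figure D5:**
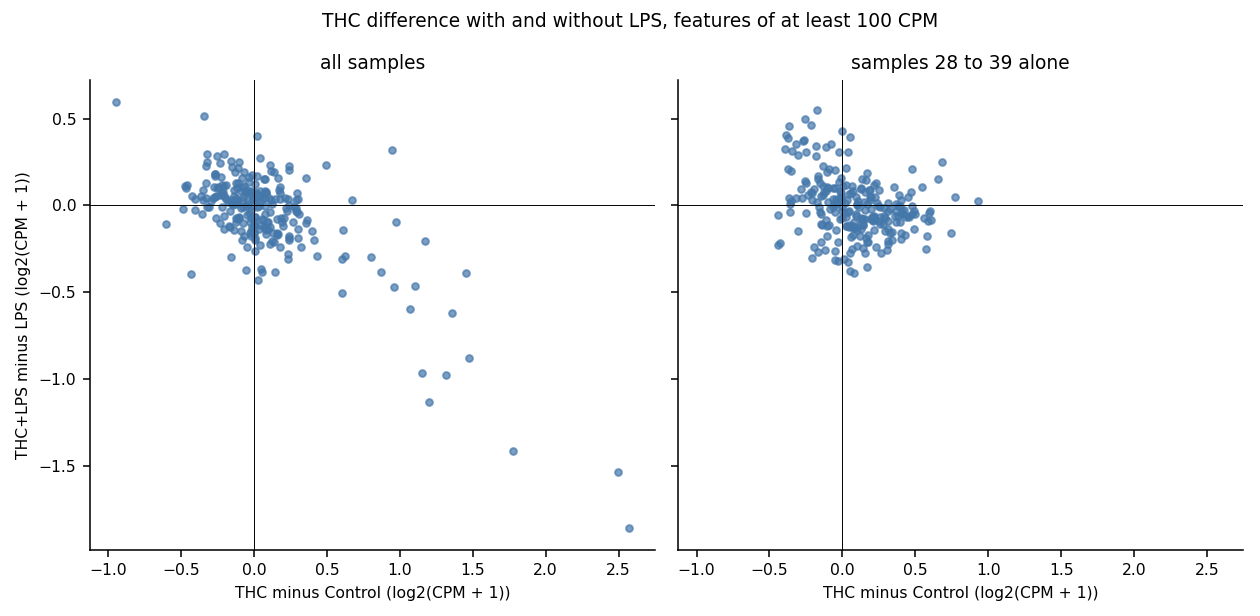
Difference between THC+LPS and LPS against the difference between THC and Control, both on log2(CPM + 1), with a point for each of the 246 features of at least 100 CPM, in all samples (left) and in samples 28 to 39 alone (right), on the same axes. The points that reach -1.86 on the y axis in the left panel are absent in the right panel, where the points shown at left below -0.6 lie above 0.

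CBD, the non-psychoactive isomer of THC whose central ring is open, was given at the same dose and time before LPS, which allowed a direct comparison of 1 pair of compounds. Between THC+LPS and CBD+LPS, 2 of 1363 features were at the criterion (0.147%) and none below an adjusted p of 0.1 by limma, edgeR or DESeq2, with 36 at an unadjusted p of at most 0.05 by limma. Both were lower after THC. mir-1188 had 3, 3 and 2 reads in CBD+LPS and 0, 0 and 1 in THC+LPS, a difference of -1.70 (SE 0.48). miR-7a-2-3p had 6, 3 and 1 reads in CBD+LPS and none in THC+LPS, with a p of 0.00179. For the LPS-induced miRNAs the 95% intervals of THC+LPS minus CBD+LPS were -0.35 to 0.58 for miR-155-5p, -0.49 to 0.68 for miR-146a-5p and -0.21 to 0.59 for miR-21a-5p on the log2 scale, and none of these 3 differed at a p of at most 0.05. miR-6390 differed by 0.39, with an interval of -0.18 to 0.95. miR-10b-5p was higher in THC+LPS than in CBD+LPS by 1.98 (SE 0.67), with an unadjusted p of 0.00873 that missed the criterion.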

How the data were processed

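Small RNA libraries of BV-2 cells (TruSeq small RNA, sequenced from 1 pool) were aligned by the authors with BWA to the mouse sequences of miRBase, with the versions used for the alignment not given in the sources used here. How reads with several positions were counted is not stated, so features with near-identical sequences are uncertain. The deposited values are CPM that the authors scaled with edgeR's TMM factors, not log values. Because of this scaling, 11 deposited columns were recorded as a score and not as CPM. Whole reads were recovered from every column, and TMM factors recomputed from them gave the deposited values within a relative 4.86e-10.

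Features with fewer than 10 reads over the 18 samples were removed. log2(CPM + 1) was fitted with limma 3.58.1 (trend, R 4.3.3) to 6 groups, with Benjamini-Hochberg adjustment. A fold on this scale understates the change of low features. Alternatives, edgeR 4.0.16 and DESeq2 1.42.0 on recovered reads among them, stand in the closing section. The scripts were tested on simulated data. Features were named by rank in p, among all features, among those of at least 100 CPM and in each list, with the LPS-induced miRNAs, while relatives of these, miR-26b-3p, miR-690, miR-705 and the leading markers were named after their values were seen. The members and lists were chosen with earlier results of these data known.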

Additional observations from a re-analysis of the deposited data

How the results depend on the processing

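The sign of the difference between THC+LPS and LPS was the same in all 13 alternatives for each of 25 features named with a p of at most 0.05. These features were chosen by p in the same samples that the alternatives reuse. Their kept sign was therefore largely set in advance and is no support. mir-1188 was at the criterion in 12 of the 13, miR-328-5p in 8, miR-3113-5p in 5 and miR-6390 in 4. The 13 leave out, among others, filterByExpr, edgeR's likelihood ratio test, DESeq2's test and the fit of LPS and THC+LPS alone. In that last fit mir-1188 was called, and miR-328-5p and miR-3113-5p were not. The count of 3 features at the criterion was 1 with edgeR's filterByExpr, 5 with a minimum of 1 read, 1 among hairpins alone, 1 by edgeR's quasi-likelihood test, 8 by its likelihood ratio test, 1 by DESeq2 and 0 at an adjusted p of at most 0.1. Leaving out 1 sample gave 1 to 3, with 1 without LPS sample 29. The only feature called with filterByExpr and by DESeq2 was miR-6390, which is none of the 3. However, filterByExpr removes features with few reads and left 645 to test. A rare feature can thus be missing from its counts, here and below, because it was not tested. With a minimum of 1 read, 2 features reached an adjusted p of at most 0.1 by limma (miR-676-3p and miR-7b-5p), where 2039 features were tested. In the other alternatives, scaling and pseudocount included, the count was 2 to 4.

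The 51 interaction features with a p of at most 0.05 became 12 with filterByExpr, 88 with a minimum of 1 read, 25 among mature miRNAs, 23 among hairpins, 20 by DESeq2 and 93 in samples 28 to 39 alone, and 37 to 83 with 1 sample left out, the highest without Control sample 28. The 6 interaction features at the criterion were 0 with filterByExpr, 1 by edgeR's quasi-likelihood test, 2 by DESeq2, 4 among mature miRNAs, 2 among hairpins, 11 with a minimum of 1 read and 12 in samples 28 to 39 alone, and 4 to 9 with 1 sample left out. For THC against Control, the 6 features at the criterion became 0 with filterByExpr, 1 among hairpins, 1 by edgeR's quasi-likelihood test, 0 by DESeq2, 13 in samples 28 to 39 alone, 2 with the share of mir-6243, mir-6236 and mir-6240 as a covariate, 3 from both groups alone and 4 to 6 with 1 sample left out, and with a minimum of 1 read 2 passed an adjusted p of 0.1. For THC+LPS against CBD+LPS, the 2 features became 0 with filterByExpr, 1 among mature miRNAs, 1 among hairpins, 1 by edgeR's quasi-likelihood test, 0 by DESeq2, 4 with that covariate, 1 from both groups alone and 0 to 3 with 1 sample left out, with 0 without CBD+LPS sample 26. The median over the features raised in CBD+LPS ran from -0.075 to 0.00016 with 1 sample left out, the latter without THC+LPS sample 27. The seed families at the criterion were 0 to 1 with 1 sample left out and 0 in samples 28 to 39 alone, alternatives chosen after seeing the data. The smaller or larger sets of features tested apart, the cause was not tested.

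The labels number every sample once, so that no replicate number is shared between groups and no pairing is stated. In label order, however, samples 22 to 27 hold 1 sample of every group, and so does each later run of the same length. A fit blocked by all of these runs was therefore possible but was not made, and the main p-values do not take the runs into account. Whether samples of a run shared a culture or a day is not stated. With samples 22 to 27 set against the rest as a covariate, 4 features were at the criterion, the 3 and miR-6390, and 41 had a p of at most 0.05. Depth limits the comparison for features under 10 CPM, where 1 of 770 intervals stayed within 2-fold.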
